A study of Schizosaccharomyces pombe with 14 samples.

Results

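The hexose transporter genes of the fission yeast Schizosaccharomyces pombe were examined in RNA-seq libraries from pac1 mutants and exonuclease strains. The set held 8 of the 7049 genes in the count table. It comprised ght1 (SPCC548.07c), ght2 (SPBC4B4.08), ght3 (SPAC1F8.01), ght4 (SPBC1683.08), ght5 (SPCC1235.14), ght6 (SPCC1235.13) and ght8 (SPCC548.06c), which were taken by name, and SPCC1235.18, an uncharacterized gene next to ght5. SPCC1235.18 was chosen by its lower counts in both pac1 mutants, so its values in those mutants are given below as a description, with no test. The ght7 gene (SPBC1348.14c) was outside the set, and it had between 0 and 174 fragments in the 14 libraries.

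Pac1 is the fission yeast RNase III, an endoribonuclease that cuts double-stranded RNA, and the study asked which transcripts depend on it. In the anchor-away experiment, 2 Pac1-AA and 2 CTL libraries came from cells given rapamycin at 2.5 µg/ml for 2 h. Both strains carried torSE, the fkh1 disruption, the nmt1-driven rpl13-2FKBP12 anchor and the ura4-D18, ade6-M210 and leu1-32 alleles, and Pac1-AA also carried Pac1-FRB-GFP, which leaves the nucleus on rapamycin. In the pac1-ts experiment, 2 clones carrying the thermosensitive pac1-G1024A allele and 1 WT strain, all with ade6M210, his3-D1, leu1-32 and ura4-D18, were grown at 30°C or moved to 37°C for 2 h, which gave 4 pac1-ts and 2 WT libraries. In the exonuclease experiment, 1 library each came from Pnmt81-dis3, Pnmt81-dhp1, Pnmt81-dhp1 Pnmt81-dis3 and WT cells kept in 60 µM thiamine, which represses the nmt81 promoter, for 12 to 15 h. These strains shared leu1-32, ura4-D18 and his3-D1, while WT was h+ with ade6-M216, Pnmt81-dhp1 was h- with ade6-M210, and the ade6 allele and mating type of the other strains were not recorded. All cells grew in supplemented Edinburgh minimal medium, at 30°C unless moved to 37°C. Each group thus rests on 1 strain, or on 2 clones for pac1-ts.

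Hexose transporters are membrane proteins of the major facilitator superfamily, which carry sugars into the cell together with protons. Fission yeast holds several paralogs that differ in substrate and affinity. Ght5 is the high-affinity glucose transporter on which growth in low glucose depends, and its expression and its place at the cell surface respond to glucose signalling.

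The total of fragments assigned to genes lay between 19877576 and 53258725 per anchor-away library, between 15997568 and 17743083 per pac1-ts library and between 6836270 and 9470347 per exonuclease library. Fragments on rRNA genes took 0.128% to 17.6% of these totals, with the highest shares in the pac1-ts experiment, whose libraries came from another kit. The labelled genotypes were compared with the targeted genes. The pac1 gene had 157 and 154 normalised CPM in Pac1-AA, against 97.0 and 94.2 in CTL, and since anchor-away moves the protein, the transcript is no check of the label. At 30°C it had 124 and 121 in pac1-ts, against 248 in WT, and at 37°C it had 85.8 and 77.2, against 69.0. The pac1-ts allele is a base substitution, so the transcript level is no check of that label either. The dhp1 gene had 114 normalised CPM in the Pnmt81-dhp1 library and 398 in the Pnmt81-dis3 library. It had 372 in the library labelled Pnmt81-dhp1 Pnmt81-dis3 and 187 in WT thiamine. The dis3 gene had 165 in the Pnmt81-dis3 library and 114 in the Pnmt81-dhp1 library. It had 248 in the library labelled Pnmt81-dhp1 Pnmt81-dis3 and 210 in WT thiamine. The dis3 transcript was thus lower in the Pnmt81-dhp1 library than in the Pnmt81-dis3 library. In the library labelled as the double depletion, both targeted transcripts were therefore above the WT thiamine library, against its label.

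The coding sequences of the 7 ght genes, read from the RefSeq genome ASM294v3, fell into 2 sets. Ght3 and ght4 shared 81.4% of aligned bases, ght5 and ght8 shared 91.6%, and ght1, ght2 and ght6 lay between 70.3% and 76.8% from each other and from ght5 and ght8. Ght3 and ght4 shared between 59.7% and 62.4% with the other ght genes. The 45 coding positions with the most columns identical in all 7 genes are printed 5′ to 3′ because they show the family's relatedness near the start of the protein. Capitals mark the positions that differ in at least 1 gene, and 31 of the 45 columns were identical.
ght1 (chrIII:234427-234471, minus strand): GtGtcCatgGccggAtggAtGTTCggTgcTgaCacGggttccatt
ght2 (chrII:3427620-3427664, plus strand): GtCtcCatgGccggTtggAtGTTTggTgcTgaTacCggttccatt
ght3 (chrI:82972-83016, plus strand): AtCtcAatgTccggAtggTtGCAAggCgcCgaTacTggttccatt
ght4 (chrII:157591-157635, plus strand): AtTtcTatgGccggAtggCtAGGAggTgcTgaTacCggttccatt
ght5 (chrIII:212349-212393, plus strand): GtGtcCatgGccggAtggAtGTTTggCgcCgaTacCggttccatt
ght6 (chrIII:204769-204813, plus strand): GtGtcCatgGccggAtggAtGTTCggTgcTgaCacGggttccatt
ght8 (chrIII:228320-228364, minus strand): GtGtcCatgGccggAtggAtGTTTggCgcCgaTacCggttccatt
Ght5 and ght8 were identical to each other over this window, and ght1 was identical to ght6.

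The nearest pair matters for the counts because fragments from identical stretches cannot be placed on 1 gene. The longest stretch identical in ght5 and ght8 was 248 bases, in ght3 and ght4 it was 240 bases, and ght1 shared 182 bases with both ght5 and ght8. The 60 coding positions at which ght5 and ght8 differed most are printed with the 17 differing bases in capitals. They lie close to the end of the coding sequence, at positions 1498 to 1557.
ght5 (chrIII:213810-213869, plus strand): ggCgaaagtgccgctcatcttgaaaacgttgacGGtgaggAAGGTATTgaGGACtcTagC
ght8 (chrIII:226844-226903, minus strand): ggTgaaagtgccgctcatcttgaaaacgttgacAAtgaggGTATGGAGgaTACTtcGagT
Of all 50-base words in the ght5 gene, 29.6% occurred again in the genome, and the share was 24.7% in ght8, 11.8% in ght3, 5.65% in ght4, 5.39% in ght1 and 2.01% in ght6. It was 0 in ght2 and in SPCC1235.18. The levels of ght5 and ght8 were therefore uncertain by the fragments they share. With the deposited gene length cut by the share of repeated words, the median of ght5 over the anchor-away libraries was 79.2 FPKM in place of 55.8. That of ght8 was 319 in place of 240.0. The share was measured on the RefSeq genes, and the deposited genes reach further upstream, by little for ght5 but by much for ght8. Those added bases were not searched for repeats, so both values may be too high, that of ght8 most.

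The positions are those of the deposited coordinates, build ASM294v2. Chromosome III held ght6 (chrIII:204706-206717, plus strand), SPCC1235.18 (chrIII:209921-211648, plus) and ght5 (chrIII:212160-214376, plus) in that order, with 511 bases between SPCC1235.18 and ght5. It also held ght8 (chrIII:226336-230546, minus) and ght1 (chrIII:232288-235289, minus), 1741 bases apart. Ght2 (chrII:3427180-3429424, plus), ght4 (chrII:155751-159570, plus) and ght3 (chrI:82746-84786, plus) lay alone. Each ght gene had 1 coding exon. Antisense genes overlapped several of them: SPNCRNA.1118 covered 100% of ght6, the protein-coding gene SPCC1235.17 covered 78.1% of SPCC1235.18, SPNCRNA.1121 covered 27.5% of ght1, and SPNCRNA.1318 and SPNCRNA.1319 covered 23.4% and 25% of ght4. Counting used strand. On its own strand ght4 contains SPNCRNA.298, a lncRNA over 19.6% of its length with 0 fragments in every library, and the counter assigns fragments lying in both genes to neither, so part of the ght4 length could give no count.

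The 7 ght genes differed widely in level, here given as FPKM, a count scaled by gene length in kilobases and by the library's total fragments on genes. Ght8, a hexose transporter, held a median of 62.3% of the summed FPKM of the 7 genes over the 14 libraries. It was the most abundant of them in 11 libraries. The exceptions were WT thiamine, where ght5 had 255 FPKM and ght8 239, and 2 libraries at 37°C, 1 pac1-ts and 1 WT, where ght2 led.

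Ght5, ght2 and ght4 came next, and ght1, ght3 and ght6 were low. The median over the 14 libraries was 225 FPKM for ght8, 57.6 for ght2, 46.8 for ght5, 8.67 for ght4, 4.09 for ght3, 4.1 for ght1 and 2.73 for ght6. Ght5 and ght2 did not keep an order, since ght5 was the higher in 1 CTL library and ght2 in the other, and ght3 and ght1 also changed places. Ght6 lay between 0.253 and 0.375 FPKM in the anchor-away libraries, with 15 to 29 fragments per library. Ght4 varied least, from 6.1 to 15.5 FPKM.

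SPCC1235.18 had 0.771 to 1.78 FPKM in the anchor-away libraries, 6.28 to 68.0 in the pac1-ts libraries and 6.29 to 17.0 in the exonuclease libraries. Its highest level was 10.8 times its lowest within the pac1-ts experiment, the widest range of the 8 genes there. That range ran from a pac1-ts library at 37°C to the WT library at 30°C. The gene was chosen as lower in the pac1 mutants, so this rank was partly set by that choice. Its range was 2.3 times within the anchor-away experiment, where ght3 spanned 2.78 times, and 2.7 times within the exonuclease experiment, where ght5 spanned 12.2 times. The strains differed between the 3 experiments, and the pac1-ts libraries came from another kit than the rest, so medians and ranges over all 14 libraries are descriptions, and tests were made only within an experiment. In bulk RNA, fewer cells making a transcript and less transcript per cell cannot be told apart.

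**Figure D1:**
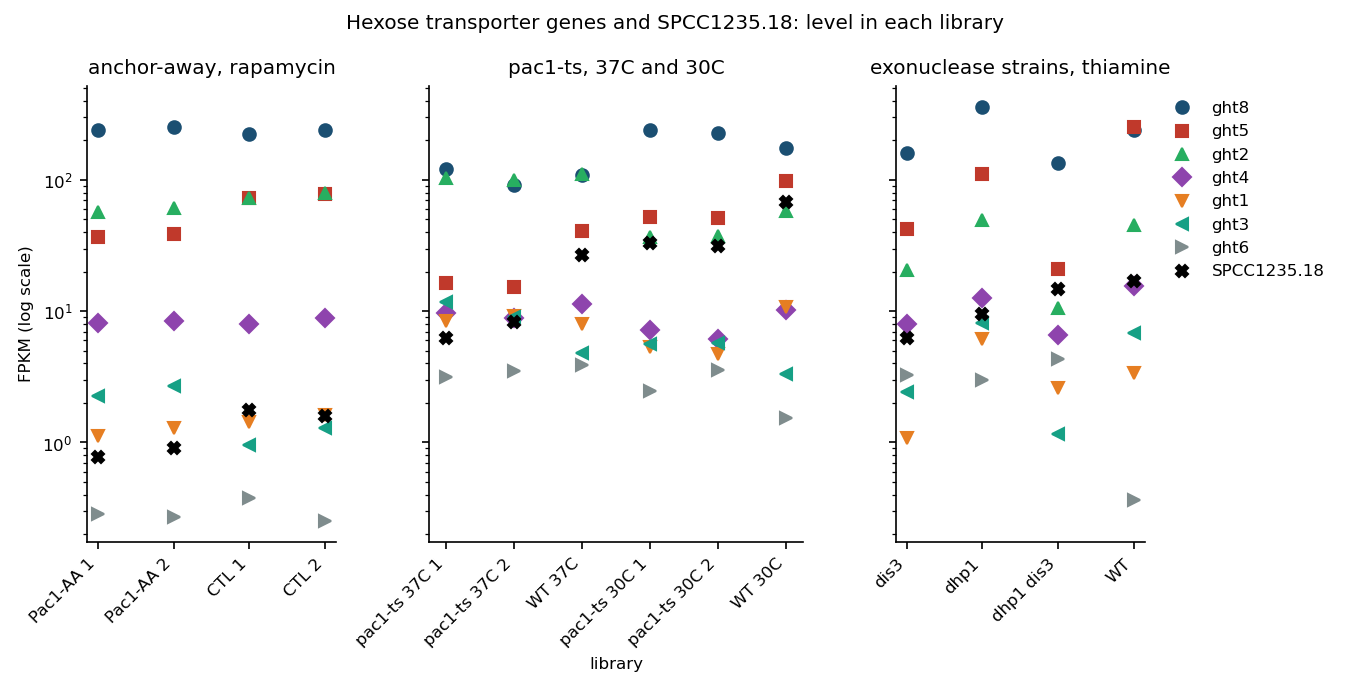
FPKM of the 7 ght genes and SPCC1235.18 on a log axis, 1 point per gene and library, in the anchor-away, pac1-ts and exonuclease experiments. Ght8 lies between 91.2 and 361 FPKM throughout, while ght5 spans 15.4 to 255 FPKM and SPCC1235.18 spans 0.771 to 68.0 FPKM.

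Nuclear depletion of Pac1 was compared with CTL first. Ght5 fell 2.17-fold in Pac1-AA, ght2 fell 1.39-fold and ght3, a gluconate transporter, rose 1.99-fold, whereas ght8 differed by a log2 fold change of -0.03. The remaining ght1, ght4 and ght6 did not pass the threshold, an adjusted p below 0.01 by the quasi-likelihood test of edgeR, with p-values adjusted after Benjamini and Hochberg over all 6328 genes tested. In this comparison 7.46% of all genes were lower and 4.55% were higher by the same rule, and 2 of the 7 ght genes were lower and 1 was higher.

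Ght5 had 78.6 and 82.1 normalised CPM (CPM, a count scaled to the library's total, here after TMM scaling) in Pac1-AA, against 168 and 181 in CTL. Both depleted libraries lay well below both controls. The log2 fold change was -1.12 ± 0.04 (SE, n = 2 each), with an adjusted p of 1.9e-07 by edgeR. No single library decided the call, which held without each library in turn.

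Ght2, a glucose and fructose transporter, had 124 and 131 normalised CPM in Pac1-AA, against 168 and 185 in CTL. The groups did not overlap, and the difference was smaller than that of ght5. The log2 fold change was -0.47 ± 0.05 (SE, n = 2 each), with an edgeR adjusted p of 6.6e-05.

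Ght3 had 4.44 and 5.26 normalised CPM in Pac1-AA, against 2.03 and 2.7 in CTL. It rested on 231 and 291 fragments in Pac1-AA and on 39 and 87 in CTL. The log2 fold change was 0.99 ± 0.17 (SE, n = 2 each), with an edgeR adjusted p of 0.0026, which was 0.017 without Pac1-AA replicate 2.

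Ght1, a high-affinity glucose transporter, had 3.25 and 3.69 normalised CPM in Pac1-AA, against 4.43 and 5.04 in CTL. The groups did not overlap, but the adjusted p was 0.036 by edgeR, at a log2 fold change of -0.46 ± 0.13 (SE, n = 2 each). Without CTL replicate 1 it was 0.0078. Ght4 had 29.8 and 31.2 in Pac1-AA, against 31.5 and 35.4 in CTL, with a log2 fold change of -0.15 and an edgeR adjusted p of 0.11, which was 0.003 without CTL replicate 1.

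Ght8 had 973 and 1021 normalised CPM in Pac1-AA, against 976 and 1053 in CTL, and the 2 groups overlapped. Ght6 had 0.557 and 0.524 in Pac1-AA, against 0.781 and 0.529 in CTL, too few fragments to show a small difference. SPCC1235.18 had 1.29 and 1.52 in Pac1-AA, against 3.18 and 2.83 in CTL, from 61 to 91 fragments per library, a log2 fold change of -1.08 ± 0.17 (SE, n = 2 each).

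**Figure D2:**
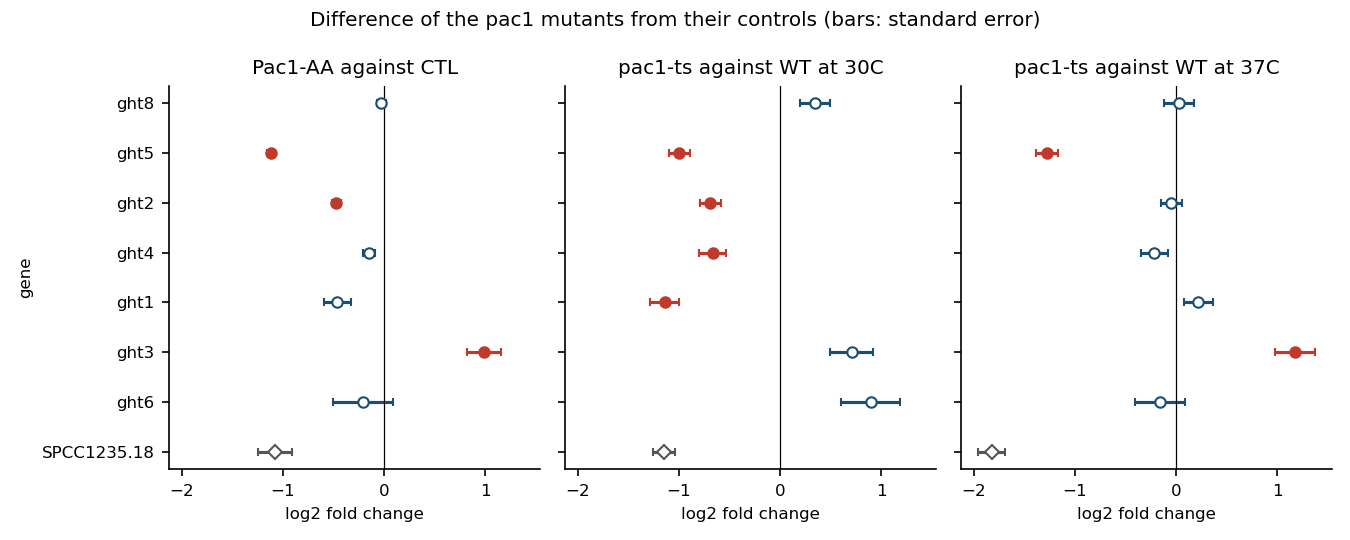
Log2 fold change (points) and standard error (bars) of each gene in Pac1-AA against CTL, pac1-ts against WT at 30°C and pac1-ts against WT at 37°C. Filled points passed an adjusted p below 0.01; the open diamond is SPCC1235.18, chosen by these comparisons and not tested. Ght5 lies at -1.12, -0.99 and -1.28.

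The thermosensitive allele was compared with WT at each temperature, in 1 model of the 6 libraries with strain, temperature and their interaction. WT had 1 library at each temperature, so its spread was assumed to be that of the pac1-ts clones. At 30°C, ght5, ght1, ght2 and ght4 fell in pac1-ts, by 1.99-fold, 2.21-fold, 1.61-fold and 1.59-fold. No ght gene rose past the threshold. Over all 6728 genes tested, 6.3% were lower and 3.63% were higher, and of the 7 ght genes 4 were lower and 0 were higher.

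Ght5 had 131 and 122 normalised CPM in pac1-ts at 30°C, against 253 in WT. Both clones were close to each other and far below WT. The log2 fold change was -0.99 ± 0.10 (SE, n = 2 and 1), with an edgeR adjusted p of 0.00011. Ght1 had 18.2 and 15.4 in pac1-ts, against 37.1 in WT, with a log2 fold change of -1.14 ± 0.14 and an edgeR adjusted p of 0.000285.

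Ght2 had 94.5 and 90.8 normalised CPM in pac1-ts at 30°C, against 149 in WT, a log2 fold change of -0.69 ± 0.10 and an edgeR adjusted p of 0.00099. Ght4 had 31.3 and 25.1 in pac1-ts, against 44.7 in WT, a log2 fold change of -0.67 ± 0.13 and an edgeR adjusted p of 0.0059. The call of ght4 was lost without the 30°C library of clone 2, at an edgeR adjusted p of 0.012, and held without that of clone 1, at 2.2e-06.

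Ght3 had 13.1 and 12.6 normalised CPM in pac1-ts at 30°C, against 7.86 in WT, a log2 fold change of 0.71 that did not pass (edgeR adjusted p = 0.037). Ght6 had 5.66 and 7.65 in pac1-ts, against 3.57 in WT, and ght8 had 1136 and 1025 in pac1-ts, against 851 in WT, at edgeR adjusted p values of 0.046 and 0.12. With the clone as a block, which takes the difference between clones out of the error, all 7 ght genes passed, and ght3, ght6 and ght8 had edgeR adjusted p values of 0.0028, 0.0032 and 0.0044. Over all genes, 1990 passed with the block and 668 without it. The clones are the only replicates in this comparison, so the error under the block lacks the spread that the comparison needs. The added passes under the block therefore give no further support. With 1 pac1-ts library left out, the log2 fold change at 30°C lay between 0.68 and 0.74 for ght3. It lay between 0.66 and 1.10 for ght6 and between 0.27 and 0.42 for ght8.

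SPCC1235.18 had 64.5 and 57.9 normalised CPM in pac1-ts at 30°C, against 135 in WT. That is a log2 fold change of -1.15 ± 0.11 (SE, n = 2 and 1), beside -0.99 for ght5. Its antisense neighbour SPCC1235.17 had 23.5 and 26.9 in pac1-ts, against 14.1 in WT, and rose by 0.84 ± 0.15 on the log2 scale (edgeR adjusted p = 0.0031).

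At 37°C, ght5 fell 2.42-fold and ght3 rose 2.3-fold in pac1-ts, and the other 5 ght genes did not pass. Over all genes 6.29% were lower and 5.8% were higher, and of the 7 ght genes 1 was lower and 1 was higher. Ght5 had 33.2 and 30.9 normalised CPM in pac1-ts, against 77.7 in WT, with a log2 fold change of -1.28 ± 0.11 (SE, n = 2 and 1) and an edgeR adjusted p of 1.5e-05. It was lower in every pac1 mutant library than in any control library of the same experiment and temperature.

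Ght3 had 21.7 and 16.7 normalised CPM in pac1-ts at 37°C, against 8.51 in WT, a log2 fold change of 1.18 ± 0.20 and an edgeR adjusted p of 0.0019. Both clones lay above WT, though they differed between themselves. Ght2 had 212 and 202 in pac1-ts, against 214 in WT, and ght1 had 22.8 and 25.1 in pac1-ts, against 20.6 in WT. Neither passed the test, with log2 fold changes of -0.05 ± 0.10 and 0.22 ± 0.14.

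Ght4 had 33.5 and 30.6 normalised CPM in pac1-ts at 37°C, against 37.2 in WT, ght6 had 5.74 and 6.4, against 6.78, and ght8 had 463 and 348, against 398. The values of ght8 in the 2 clones lay on both sides of WT. SPCC1235.18 had 9.86 and 12.9 in pac1-ts, against 40.1 in WT, a log2 fold change of -1.82 ± 0.13, and -2.05 without the 37°C library of clone 2.

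**Figure D3:**
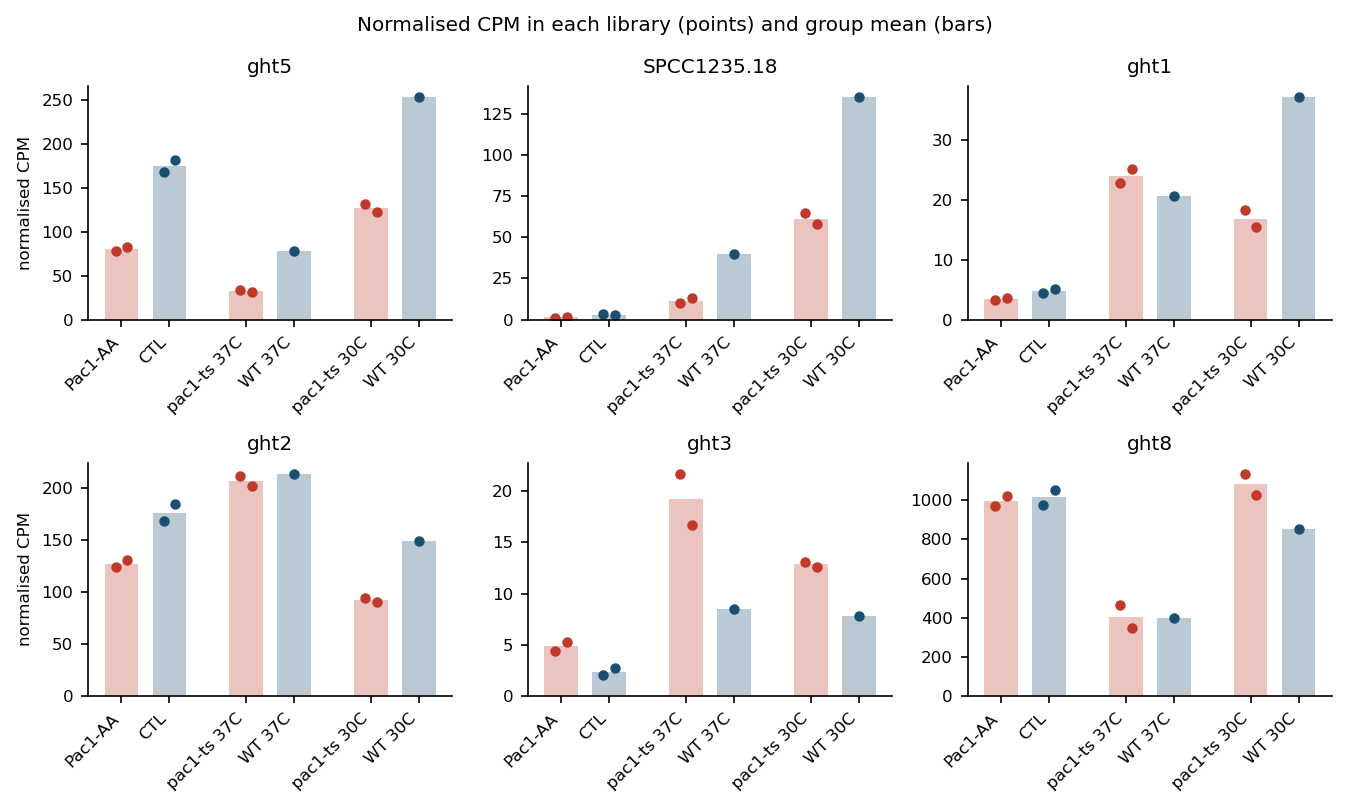
Normalised CPM of ght5, SPCC1235.18, ght1, ght2, ght3 and ght8 in each library (points) with the group mean (bars), for Pac1-AA and CTL, then pac1-ts and WT at 37°C and at 30°C; WT has 1 library per temperature. Ght5 lies at 30.9 to 131 normalised CPM in pac1-ts and at 77.7 to 253 in WT, and ght1 lies below WT at 30°C only.

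The effect of pac1-ts at 37°C was then set against its effect at 30°C by the interaction term. Of the 7 ght genes, 1 passed the threshold, ght1, where 1.26% of all genes did. Its log2 fold change was 0.22 at 37°C and -1.14 at 30°C, a difference of 1.36 ± 0.20 (edgeR adjusted p = 0.0047). With the scaling factors left out the adjusted p was 0.011, and with genes under a mean count of 50 removed it was 0.013.

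Ght2 showed a difference of 0.64 ± 0.15 with an edgeR adjusted p of 0.0445. It passed the threshold with the clone as a block, at 0.00019, and without 1 of 3 pac1-ts libraries, at 0.00053, 0.0012 and 0.0056. For ght5 the effect at 37°C differed from that at 30°C by -0.28 ± 0.16, which did not pass (edgeR adjusted p = 0.45). The difference was -0.68 ± 0.18 for SPCC1235.18.

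The 2 h at 37°C moved the family in WT as well. Ght5 fell 3.25-fold, ght8 fell 2.14-fold and ght1 fell 1.80-fold at 37°C, and ght2 rose 1.44-fold, so 3 ght genes were lower and 1 was higher. Of all genes, 18.1% were lower and 12.8% were higher. These are comparisons of 1 WT library with 1 other, and their error comes from the pac1-ts clones.

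Ght5 had 77.7 normalised CPM in WT at 37°C, against 253 at 30°C, a log2 fold change of -1.70 ± 0.13 with an edgeR adjusted p of 2.5e-06. Ght8 had 398 at 37°C, against 851 at 30°C, a log2 fold change of -1.10 ± 0.17 with an adjusted p of 0.0004 by edgeR. Both genes of the pair with the nearest coding sequences were thus lower at 37°C.

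Ght1 had 20.6 normalised CPM in WT at 37°C, against 37.1 at 30°C (log2 fold change -0.85 ± 0.16, edgeR adjusted p = 0.0015). Ght2 had 214 at 37°C, against 149 at 30°C (0.52 ± 0.12, edgeR adjusted p = 0.0045). SPCC1235.18 had 40.1 at 37°C, against 135 at 30°C, a log2 fold change of -1.76 ± 0.14 that was close to that of ght5. Under library totals alone, without TMM, the median of all genes shifted to 0.40 on the log2 scale, and ght1 then stood at -0.43 with an edgeR adjusted p of 0.040 and ght6 at 1.34 with one of 0.0093.

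In pac1-ts, ght5 and ght8 fell at 37°C, and ght2, ght3 and ght1 rose. Of all genes 25.4% were lower and 21.4% were higher, and of the 7 ght genes 2 were lower and 3 were higher. Ght5 had 33.2 and 30.9 normalised CPM at 37°C, against 131 and 122 at 30°C, a log2 fold change of -1.98 ± 0.09 (SE, n = 2 each) with an edgeR adjusted p of 1.9e-08. Ght8 had 463 and 348 at 37°C, against 1136 and 1025 at 30°C, a log2 fold change of -1.41 ± 0.12 with an edgeR adjusted p of 2.3e-06.

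Ght2 rose 2.24-fold, to 212 and 202 normalised CPM at 37°C, against 94.5 and 90.8 at 30°C (edgeR adjusted p = 7.6e-07). Ght1 had 22.8 and 25.1 at 37°C, against 18.2 and 15.4 at 30°C, a log2 fold change of 0.51 ± 0.12 (edgeR adjusted p = 0.0036) that was 0.39, at an adjusted p of 0.039, without the 30°C library of clone 2. Ght3 had 21.7 and 16.7 at 37°C, against 13.1 and 12.6 at 30°C, a log2 fold change of 0.58 ± 0.15 (edgeR adjusted p = 0.0068) that did not pass without the 37°C library of clone 1 (0.0705) or the 30°C library of clone 2 (0.016). SPCC1235.18 had 9.86 and 12.9 at 37°C, against 64.5 and 57.9 at 30°C, a log2 fold change of -2.43 ± 0.11.

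The share of each gene in the summed FPKM of the 7 ght genes moved with these differences. Ght5 held 10.6% and 10.6% of the sum in Pac1-AA, against 19.2% and 19.1% in CTL. It held 6.0% and 6.5% in pac1-ts at 37°C, against 14.1% in WT, and 15.0% and 15.3% in pac1-ts at 30°C, against 27.6% in WT. Ght2 held 37.9% to 42.0% of the sum in the 3 libraries at 37°C, against 10.7% to 16.1% in the 3 at 30°C. The summed FPKM itself was 345 and 364 in Pac1-AA, against 380.0 and 411 in CTL.

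**Figure D4:**
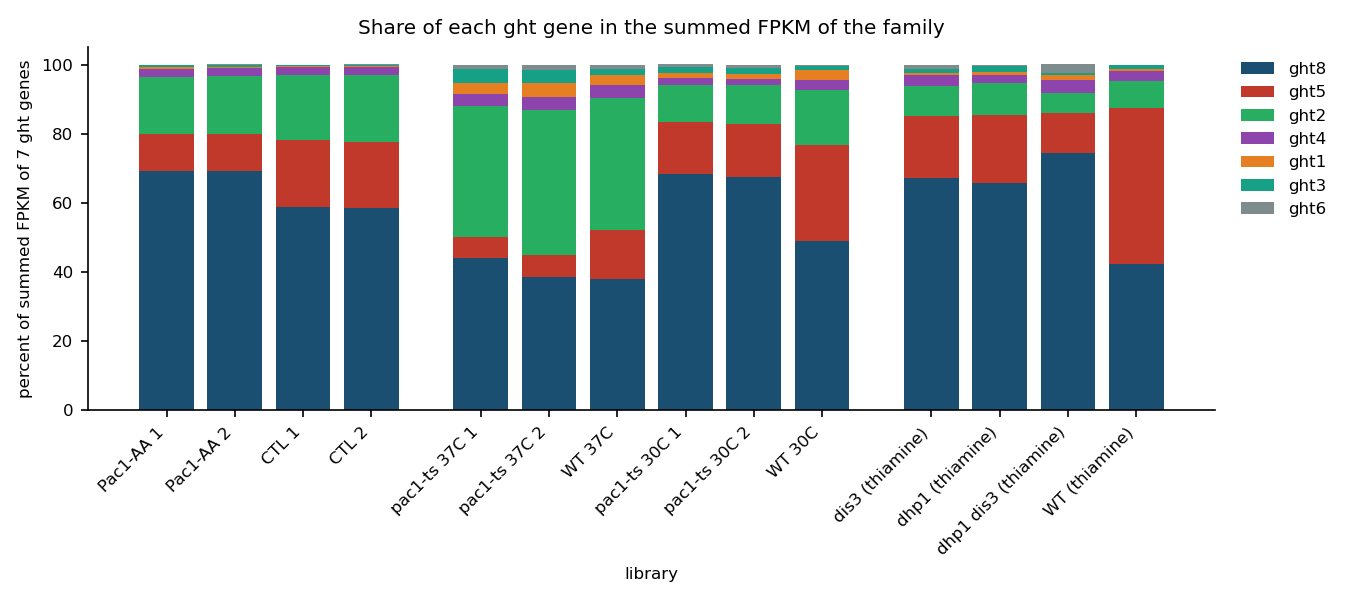
Percent of the summed FPKM of the 7 ght genes held by each gene (stacked bars), 1 bar per library, in the anchor-away, pac1-ts and exonuclease experiments. The ght5 part is 10.6% in both Pac1-AA libraries, against 19.1% and 19.2% in CTL, and reaches 45.1% in WT thiamine.

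The exonuclease strains had 1 library each, so their ratios to WT thiamine carry an exact Clopper-Pearson 95% interval for counting error alone and no replicate check. Dis3 is the catalytic 3′-5′ exonuclease of the RNA exosome and Dhp1 is the nuclear 5′-3′ exonuclease. Ght5 was lower and ght6 was higher than in WT thiamine in all 3 libraries, each by more than 2-fold. The 3 ratios of a gene share the 1 WT thiamine library, so their common direction is not 3 separate observations. In the Pnmt81-dis3 library 4 ght genes (ght1, ght2, ght3 and ght5) were lower by more than 2-fold and 1 was higher, where 19.7% of 6360 genes were lower and 25.4% were higher. In the Pnmt81-dhp1 library 1 was lower and 1 was higher, where 11.2% were lower and 17.8% were higher. In the library labelled Pnmt81-dhp1 Pnmt81-dis3, 4 (ght2, ght3, ght4 and ght5) were lower and 1 was higher, where 19.0% were lower and 26.2% were higher.

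Ght5 had 101 normalised CPM in the Pnmt81-dis3 library, 196 in the Pnmt81-dhp1 library and 51.8 in the library labelled Pnmt81-dhp1 Pnmt81-dis3, against 587 in WT thiamine. All 3 libraries lay below WT thiamine, where ght5 also had its highest FPKM of the 14 libraries. The log2 ratios were -2.54 (interval -2.65 to -2.43), -1.58 (-1.66 to -1.50) and -3.50 (-3.66 to -3.35).

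Ght6 had 62, 44 and 73 fragments in the Pnmt81-dis3, Pnmt81-dhp1 and labelled double library, against 5 in WT thiamine. The log2 ratios were 3.09 (1.91 to 4.88), 2.55 (1.34 to 4.36) and 3.55 (2.39 to 5.34), and the width of the intervals comes from those 5 fragments. Its antisense lncRNA SPNCRNA.1118 had 663, 118 and 530 normalised CPM in the same order, against 199 in WT thiamine. The antisense RNA was thus higher in 2 of the libraries and lower in the Pnmt81-dhp1 library, where ght6 was higher; its part in the ght6 counts was not tested.

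Ght8 had 719, 1224 and 632 normalised CPM in the Pnmt81-dis3, Pnmt81-dhp1 and labelled double library, against 1042 in WT thiamine, all within 2-fold. Ght2 had 49.8, 89.9 and 26.1, against 106, and ght3 had 5.33, 13.5 and 2.65, against 14.6. For ght2, ght3 and ght8 the Pnmt81-dhp1 library lay nearest to WT thiamine, with log2 ratios of -0.24, -0.12 and 0.23. Under library totals alone ght2 stood at 0.12 in that library.

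Ght1 had 3.52, 14.8 and 8.76 normalised CPM in the Pnmt81-dis3, Pnmt81-dhp1 and labelled double library, against 10.6 in WT thiamine, and only the first was past 2-fold. Ght4 had 33.0, 39.2 and 28.3, against 61.3. SPCC1235.18 had 11.7, 13.2 and 28.3, against 30.5, and the interval of the last log2 ratio, -0.11 (-0.395 to 0.175), included 0.

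**Figure D5:**
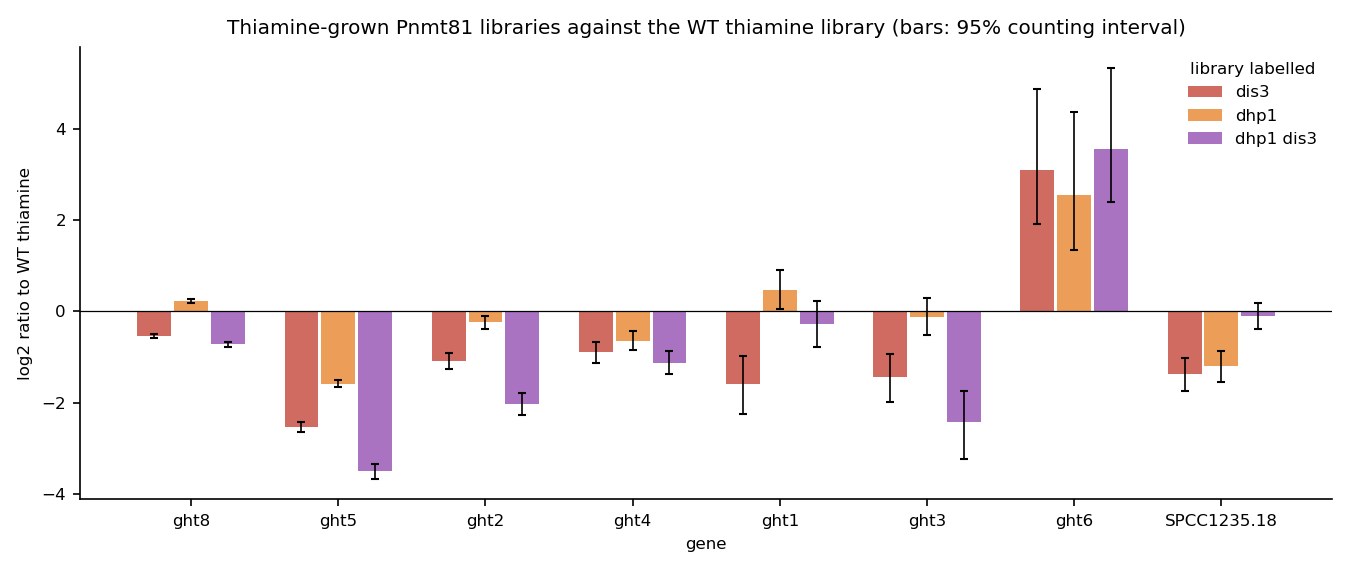
Log2 ratio of the Pnmt81-dis3, Pnmt81-dhp1 and Pnmt81-dhp1 Pnmt81-dis3 library to the WT thiamine library for each gene (bars), with 95% exact intervals for counting error; 1 library per strain. Ght5 lies at -2.54, -1.58 and -3.50, and ght6 at 3.09, 2.55 and 3.55.

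The genes around SPCC1235.18 were followed across all libraries. SPCC1235.17, an uncharacterized protein-coding gene read from the opposite strand, rose in both pac1 mutants, while SPCC1235.18 was lower there. It had 5.75 and 5.47 normalised CPM in Pac1-AA, against 3.75 and 3.08 in CTL, a log2 fold change of 0.75 ± 0.13 (edgeR adjusted p = 0.0031), and at 37°C it had 43.7 and 50.5 in pac1-ts, against 31.8 in WT (0.56 ± 0.13, edgeR adjusted p = 0.0097). In the Pnmt81-dis3 library it had 695, in the Pnmt81-dhp1 library 91.9 and in the labelled double library 905, against 23.5 in WT thiamine. The library with the highest SPCC1235.17, the labelled double, had SPCC1235.18 nearest to WT thiamine. Whether the antisense gene takes part in the values of SPCC1235.18 was not tested. The gene dga1, 920 bases past ght5 on the same strand, passed in none of the tested comparisons and had 125 and 123 in Pac1-AA, against 124 and 127 in CTL.

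Around ght1, the antisense lncRNA SPNCRNA.1121 had 12.8 and 15.6 normalised CPM in pac1-ts at 30°C, against 6.49 in WT, and 21.6 and 21.9 in pac1-ts at 37°C, against 9.14 in WT. It rose at both temperatures, by 1.13 ± 0.20 and 1.25 ± 0.18 on the log2 scale (edgeR adjusted p = 0.0028 and 0.00066), while ght1 fell at 30°C and did not pass at 37°C. Beyond it, SPCC1529.01 fell in Pac1-AA, and likewise in pac1-ts at 30°C and at 37°C. Beside ght4, the antisense SPNCRNA.1318 had 9.78 and 10.4 in Pac1-AA, against 14.4 and 13.3 in CTL, and fell by 0.45 ± 0.08 on the log2 scale (edgeR adjusted p = 0.0034).

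The remaining genes within 3000 bases of a member were looked up in the same fits. Urh1, a uridine ribohydrolase gene on the opposite strand upstream of ght4, fell in all 3 pac1 comparisons. It had 545 and 537 normalised CPM in Pac1-AA, against 703 and 685 in CTL (log2 fold change -0.36 ± 0.03, edgeR adjusted p = 4.8e-05). In pac1-ts it had 33.5 and 38.0 at 37°C, against 88.5 in WT (-1.31 ± 0.11, edgeR adjusted p = 1.4e-05), and 19.1 and 22.1 at 30°C, against 35.2 in WT (-0.77 ± 0.13, edgeR adjusted p = 0.0017). Ght4 itself passed only at 30°C.

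Mug146, upstream of ght6, fell in pac1-ts at 37°C by 1.62 ± 0.21 on the log2 scale, and its effect differed between the temperatures by -2.31 ± 0.37 (edgeR adjusted p = 0.00036 and 0.0065). At 37°C, shu1, a heme uptake gene beside ght3, rose by 1.58 ± 0.28, and usp102, a U1 snRNP gene beside ght2, fell by 0.46 ± 0.09 on the log2 scale. At 30°C, frp1, a ferric reductase gene beside ght4, rose by 1.0 ± 0.20, and urm1, beside ght8, fell by 0.69 ± 0.09 on the log2 scale. Vps25, prp39 and atg5 beside ght2, mal1 and SPNCRNA.1317 beside ght4, SPNCRNA.603 beside ght3, and dbl5, SPNCRNA.460 and SPNCRNA.1120 beside ght8 passed in none of the pac1 comparisons or were too low to be tested.

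Genes that use or sense the transported sugars were counted from a list of 25. Of 10 genes for glucose and gluconate metabolism, 0 rose and 2 fell in Pac1-AA, 0 rose and 1 fell in pac1-ts at 30°C, and 1 rose and 1 fell in pac1-ts at 37°C. Of all genes tested, 4.55% rose and 7.46% fell, 3.63% rose and 6.3% fell, and 5.8% rose and 6.29% fell in these comparisons, so the counts of the list lie near the background. The median log2 fold changes of the 10 were -0.08, -0.11 and -0.04, beside 0.00, -0.01 and 0.00 over all genes tested. In Pac1-AA the 2 that fell were hxk1 (hexokinase, -0.17 ± 0.03) and pfk1 (phosphofructokinase, -0.20 ± 0.04), with edgeR adjusted p values of 0.0074 and 0.0038. In pac1-ts, gnd1 (6-phosphogluconate dehydrogenase) fell at both temperatures, by 0.80 ± 0.10 on the log2 scale at 30°C and by 1.00 ± 0.10 at 37°C. Inv1, the secreted invertase, rose by 1.70 ± 0.15 at 37°C, and its effect differed from that at 30°C by 2.10 ± 0.20 (edgeR adjusted p = 0.00035).

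Of 15 glucose signalling genes, 2 rose and 1 fell in Pac1-AA, 0 rose and 1 fell in pac1-ts at 30°C, and 1 rose and 0 fell in pac1-ts at 37°C, again near the shares over all genes of 4.55% and 7.46%, 3.63% and 6.3%, and 5.8% and 6.29%. In Pac1-AA, gpa2, the G alpha subunit of the glucose-sensing pathway, rose by 0.55 ± 0.03 on the log2 scale (edgeR adjusted p = 3.8e-06). Git3, the receptor of that pathway, fell by 0.16 ± 0.03 in Pac1-AA and by 0.60 ± 0.10 in pac1-ts at 30°C. Aly3, an arrestin-related adaptor that acts on Ght5, rose by 0.17 ± 0.03 in Pac1-AA, and cgs1, the regulatory subunit of protein kinase A, rose by 0.57 ± 0.11 in pac1-ts at 37°C. The median log2 fold changes of the 15 genes were 0.01, -0.12 and 0.01 in these comparisons, beside 0.00, -0.01 and 0.00 over all genes.

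At 37°C in WT, 5 of the 10 metabolism genes fell and 0 rose, where 18.1% of all genes fell and 12.8% rose. They were the hexokinase genes hxk1 (-1.10 ± 0.13) and hxk2 (-1.11 ± 0.22), zwf1 (glucose-6-phosphate dehydrogenase, -0.72 ± 0.12), pgi1 (glucose-6-phosphate isomerase, -0.61 ± 0.15) and pfk1 (-0.63 ± 0.15). Of the 15 signalling genes, 3 rose and 3 fell. The G protein subunit genes git5 (beta, 0.81 ± 0.14) and git11 (gamma, 0.79 ± 0.18) and gti1, an inducer of gluconate transport (0.38 ± 0.10), rose, and git3 (-0.54 ± 0.12), gpa2 (-0.70 ± 0.13) and ssp1, a kinase upstream of AMPK (-0.63 ± 0.12), fell.

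In pac1-ts at 37°C against 30°C, 3 metabolism genes rose and 6 fell, where 21.4% of all genes rose and 25.4% fell. Inv1 (2.69 ± 0.12), the gluconeogenic fbp1 (0.79 ± 0.14) and the alpha-glucosidase gene agl1 (0.62 ± 0.12) rose, and hxk1 (-1.40 ± 0.09), hxk2 (-1.21 ± 0.15), pfk1 (-0.96 ± 0.10), pgi1 (-0.92 ± 0.11), zwf1 (-0.36 ± 0.08) and gnd1 (-0.36 ± 0.08) fell. Of the signalling genes 5 rose and 5 fell. Git5 (1.21 ± 0.09), git11 (0.96 ± 0.13), pka1, the catalytic subunit of protein kinase A (0.76 ± 0.10), cgs1 (0.65 ± 0.09) and gti1 (0.45 ± 0.07) rose, and ssp1 (-0.94 ± 0.09), gpa2 (-0.76 ± 0.09), the AMPK gene ssp2 (-0.48 ± 0.09), the repressor gene scr1 (-0.40 ± 0.09) and git3 (-0.31 ± 0.08) fell.

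In the Pnmt81-dis3 library 7 of the 10 metabolism genes were lower by more than 2-fold, where 19.7% of all genes were. In the labelled double library 6 were, where 19.0% of all genes were, and in the Pnmt81-dhp1 library 0 were, where 11.2% were. The median log2 ratios of the 10 genes were -1.82 in the Pnmt81-dis3 library, -1.50 in the labelled double library and -0.15 in the Pnmt81-dhp1 library, beside 0.00, -0.01 and 0.04 over all genes. The signalling genes had medians of -0.40, -0.56 and 0.09 in the same libraries.

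The 600 bases before each start codon were searched on both strands for CCCCTC, the STREP element bound by Rst2, and TGACGT, the CRE bound by Atf1 and Pcr1, factors that activate fbp1 when glucose is low. By the deposited coordinates, this window lies inside the annotated gene for ght1, ght4, ght8 and SPCC1235.18, so the bases before those genes were not searched. CCCCTC was in none of the 8 genes' windows and in 4.04% of the 5103 windows of protein-coding genes. TGACGT was in the windows of ght2 and ght3 and in 9.19% of all windows, and these matches are shown with the motif in capitals, on the strand of the gene in build ASM294v3.
ght2 (chrII:3427015-3427044, plus strand): cttgtaatattgTGACGTataaccaaaaac
ght3 (chrI:82370-82399, plus strand): caagtcaattctACGTCAgccatccaagaa
The match of ght2 began 545 bases before the start codon, and that of ght3, which reads on the other strand, 554 bases before it. Ght2 fell in Pac1-AA and ght3 rose there, and whether the motif takes part in the values of either gene was not tested.

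The pattern of each gene over the 14 libraries, on the log2 scale with each experiment centred on its own mean, was compared with 5834 genes by Pearson's r, given as a description. The points share the temperature shift and the exonuclease strains, and the part of these in each r was not tested. Nearest to ght5 were byr3 (r = 0.989), rpl2801 (0.984) and rps2 (0.983), of which the last 2 code for ribosomal proteins. Nearest to SPCC1235.18 were rpp101 (0.969), rps2302 (0.960) and btf3 (0.960), of which the first 2 code for ribosomal proteins.

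Ght8 was nearest to the septin gene spn4 (0.975), hta2 (0.970), a histone H2A gene, and asl1 (0.957). Ght2 was nearest to leu3 (0.965), pof10 (0.963) and tra1 (0.957). Ght6 was nearest to SPNCRNA.1176 (0.976), tam6 (0.970) and SPNCRNA.677 (0.966), 2 of them lncRNAs. Ght1 was nearest to mpa1 (0.898), toa1 (0.892) and spp1 (0.876), ght3 to alp6 (0.914), srw1 (0.911) and hpz2 (0.901), and ght4 to toe1 (0.928), SPAC1327.01c (0.926) and cit1 (0.914). Among the 8 genes themselves the highest values were those of ght5 with SPCC1235.18 (0.734), ght2 with ght4 (0.728) and ght5 with ght8 (0.717), and the lowest was that of ght4 with ght6 (-0.894). SPCC1235.18 was chosen by its lower counts in both pac1 mutants, where ght5 was lower too, so its r with ght5 was partly set by that choice. All r values of ght6 rest on few fragments, 15 to 29 per anchor-away library and 5 in WT thiamine. Of the exonuclease libraries, WT thiamine was also the one where ght4 was highest.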

How the data were processed

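RNA from 14 fission yeast libraries was sequenced in pairs, after ribosomal RNA removal, with a Zymo-Seq RiboFree kit for the pac1-ts experiment and an Illumina TruSeq Stranded kit for the others. The authors trimmed reads with Trimmomatic (minimum length 36), aligned them with HISAT2 to build ASM294v2 and counted fragments per gene and strand with featureCounts, so the deposited values were raw counts, in which fragments with several hits were left out. CPM and FPKM were computed here from those deposited counts.

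Members and gene lists were chosen with earlier results of these data known. Counts were fitted with edgeR 4.0.16 (R 4.3.3; TMM, quasi-likelihood test, filterByExpr with a minimum count of 10), separately for the anchor-away and pac1-ts experiments, with Benjamini-Hochberg adjustment over all genes tested. Changed means an adjusted p below 0.01. The labels do not say whether CTL and Pac1-AA replicates were separate cultures. A figure legend of the study calls the 2 replicates behind its Pac1-AA and control coverage biological, without saying how they were grown. The p-values measure the spread between these samples. Pac1-ts numbers mark the same 2 clones at both temperatures, and their deviations correlated at 0.514. Exonuclease ratios used TMM-scaled counts with 0.5 added. Intervals cover counting error only. Alternatives were DESeq2 1.42.0, other scaling and filters, a replicate block, a model with no interaction and leaving out libraries. On simulated counts the fit recovered 198 of 200 changed genes for Pac1-AA against CTL and 195 of 200 for pac1-ts against WT at 30°C. Recovery of differences as small as those of the ght genes between pac1 mutants and controls was not tested.

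All 8 genes are named, with annotated genes within 3000 bases, members of the 2 pathway lists past the threshold, the 3 genes of most similar pattern, and pac1, dis3 and dhp1. Sequences come from RefSeq ASM294v3, where 6844 of the 7049 genes matched a locus tag and 99.5% of protein-coding genes shared a start or end with the deposited coordinates. Coding sequences were aligned with mafft 7.526.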

Additional observations from a re-analysis of the deposited data

Results flagged for a closer look

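The effect of pac1-ts on ght1 at 37°C differed from that at 30°C by 1.36 on the log2 scale in the interaction term. Ght1 had 22.8 and 25.1 normalised CPM in pac1-ts at 37°C, against 20.6 in WT, and 18.2 and 15.4 in pac1-ts at 30°C, against 37.1 in WT, so both clones lay above WT at 37°C and below it at 30°C. The edgeR adjusted p was 0.0047, and it ranged between 6.4e-08 and 0.013 over the alternatives. The difference rests on 1 WT library at each temperature. The antisense SPNCRNA.1121 rose in pac1-ts at both temperatures, and its part in the ght1 values was not tested.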

How the results depend on the processing

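Ght5 kept its call and direction in every alternative run, in each of the 5 comparisons where it passed. The number of the 7 ght genes past the threshold was 3 for Pac1-AA against CTL and lay between 2 and 5 when 1 library was left out. For pac1-ts against WT at 30°C it was 4, with 7 under the replicate block, 2 in the model with no interaction term and 3 to 6 with 1 library left out. For the interaction it was 1, with 0 under library totals alone, 0 with a mean count of at least 50, 2 at an adjusted p below 0.05, 2 under the replicate block and 1 to 2 with 1 library left out. For 37°C against 30°C in pac1-ts it was 5, with 3 by DESeq2, 3 with no interaction term and 3 to 5 with 1 library left out. By construction the model with no interaction term gives 1 effect for both temperatures or strains, and there ght1 stood at 0.040 for 37°C against 30°C in WT. Ght2 in the Pnmt81-dhp1 library turned to 0.12 under library totals alone. The causes of the other changes were not tested. Over all genes, Pac1-AA against CTL had 760 calls, 1421 under library totals alone, 1378 at 0.05, 1393 under the replicate block and 443 to 1167 with 1 library left out. The replicate block gave 1990 in place of 668 for pac1-ts at 30°C, 2178 in place of 813 at 37°C and 420 in place of 85 for the interaction, and an adjusted p below 0.05 gave 1618, 1751 and 191. The interaction had 56 calls under library totals alone and 41 with a mean count of at least 50. With 1 library left out, the highest counts were 1501, 1500 and 337. The share of lower calls under library totals alone was 20.6% in place of 62.1% for Pac1-AA, 72.3% in place of 52.0% for pac1-ts at 37°C, 39.3% in place of 28.2% for the interaction, 16.4% in place of 58.7% for 37°C in WT and 27% in place of 54.3% in pac1-ts. The median log2 fold change of all genes then stood at 0.11 for Pac1-AA, -0.12 for the interaction, 0.40 for 37°C in WT and 0.30 in pac1-ts. The deviations of Pac1-AA and CTL libraries of the same number correlated at 0.0302. That value covers all genes tested, those with low counts included, so it does not settle whether the numbers pair the libraries. Low counts limit ght6 and SPCC1235.18 in the anchor-away libraries, and 1 library per strain limits WT in the pac1-ts experiment and all exonuclease values.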
